A study of Homo sapiens with 40 samples.

Results

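The rows RN7SL1, RN7SL2 and 7SK of the count files were examined in 40 RNA-Seq libraries of HEK293 cells, an established human embryonic kidney line. They are 3 of 55765 gene symbols, chosen by their measured abundance, by their low level in polysomal RNA and by their spread between libraries, so those values are given below as descriptions without a test. In the RNA immunoprecipitation experiment (RIP), cells were lysed and RNA bound by antibodies against eIF4A1, eIF4A2 or DDX6 (IP), which are DEAD-box RNA helicase family proteins, was sequenced beside total RNA from the same kind of lysate, with 3 libraries in each of the 4 groups. The gradient experiment set siRNA that targets CNOT1, on which the other Ccr4-Not deadenylase subunits assemble, beside a control siRNA. Lysates without nuclei and debris were run through sucrose, and RNA of the input, of fractions 1 to 5 (subpolysomal) and of fractions 6 to 11 (polysomal) was sequenced with 4 libraries in each of the 6 groups. In the TNRC6 experiment, total RNA came from whole cells with a control siRNA or with TNRC6A and TNRC6B both targeted (TNRC6A/B siRNA), whose proteins join Argonaute to Ccr4-Not, with 2 libraries in each of the 2 groups. All libraries were made from poly(A)-selected RNA.

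7SL RNA is the scaffold of the signal recognition particle (SRP), which binds signal peptides as they leave the ribosome and brings the ribosome to the translocon of the endoplasmic reticulum. 7SK RNA is a nuclear scaffold that holds the kinase P-TEFb inactive together with HEXIM1, LARP7 and MEPCE. Both are made by RNA polymerase III, are not translated and end without a poly(A) tail of the kind that mRNAs carry.

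The 7SL copies are nearly the same in sequence, and the few bases that differ are those by which reads could be told apart. RN7SL2 lies on chromosome 14 at 50329271 to 50329567 on the minus strand of GRCh37, where it overlaps an exon of the lncRNA ENSG00000282885. RN7SL3 lies nearby at 50320336 to 50320632 on the minus strand and overlaps no annotated gene. The annotation used (GENCODE release 44 for GRCh37) did not place the symbol RN7SL1. A match of the RN7SL2 sequence found a further full copy at 50053298 to 50053594 of chromosome 14 on the plus strand, inside the protein-coding gene RPS29 of the minus strand and outside its exons. The RefSeq gene table likewise placed RN7SL1, 299 bases long, over RPS29. This copy and RN7SL2 differed at 4 of 297 bases, an identity of 98.7%. RN7SL3 differed from RN7SL2 at 11 bases.

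The row named 7SK is not the row of the 7SK RNA gene, whose symbol is RN7SK. RN7SK lies at 52860418 to 52860748 of chromosome 6 on the plus strand, outside other genes. The symbol 7SK stood for 3 loci in the annotation used here (that of the authors is not given in the sources used), each within an intron of a protein-coding gene. These were 136866330 to 136866630 of chromosome 6 on the plus strand (in MAP7, minus strand), 45697228 to 45697549 of chromosome 13 on the plus strand (in GTF2F2, plus strand) and 12632122 to 12632316 of chromosome X on the minus strand (in FRMPD4, plus strand). The row 7SK held 8 to 77 counts in a library, so it was not abundant, against the description under which it was chosen. It is called the 7SK row here, and RN7SK is given beside it throughout. The first 30 bases of each are shown 5′ to 3′, with capitals at positions that differ from RN7SK. Positions were compared from the first base on without gaps, so an offset between loci also gives capitals. RN7SK is at chr6:52860418-52860447, the chromosome 6 locus at chr6:136866330-136866359, the chromosome 13 locus at chr13:45697228-45697257 and the chromosome X locus, on the minus strand, at chrX:12632287-12632316.
RN7SK: ggatgtgagggcgatctggctgcgacatct
7SK, chromosome 6: TgaAAtgaggAcCaGctgAGtAGACcTAGC
7SK, chromosome 13: ggatgtgagTgTgatctgTctgGgacatct
7SK, chromosome X: ggatgtgaAggTgatctggctgTgTcatct

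Reads were sequenced over 75 cycles, so windows of 75 bases were compared with the genome on both strands. Of the 223 windows of RN7SL2, 131 were identical in the copy within RPS29. Only 49 of 223 windows of the copy within RPS29 and 33 of 223 of RN7SL2 occurred nowhere else in GRCh37, against 174 of 223 for RN7SL3. In RN7SK, 94 of 257 windows occurred nowhere else, whereas all 227, 248 and 121 windows of the 3 loci named 7SK were found at their own locus only. How the counting treated reads that fit several copies is not given in the sources used here, so the split of 7SL reads between rows is uncertain. A total of 846 further rows carried RN7SL numbers, and 682, 586 and 740 of the 848 such rows were at 0 in all libraries of the RIP, gradient and TNRC6 experiments.

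**Figure D1:**
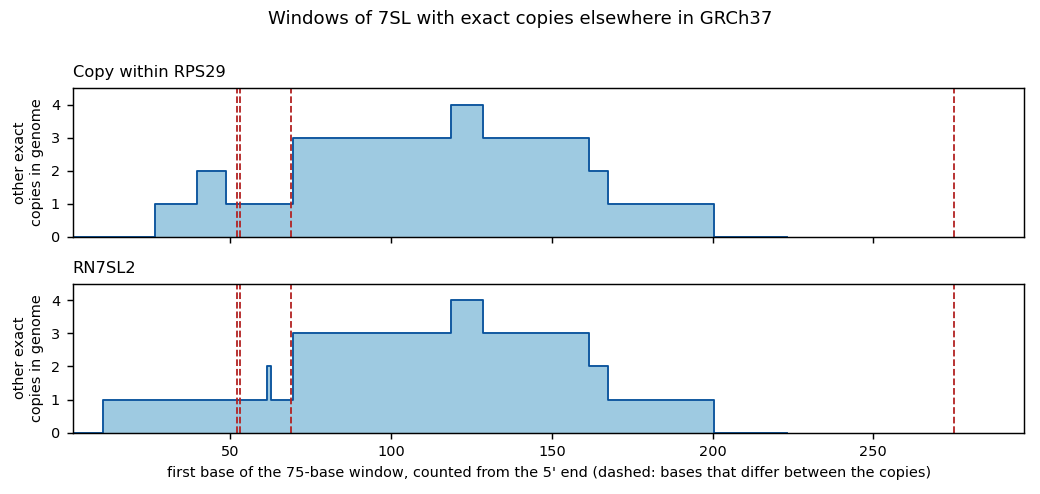
Number of other places in GRCh37 with an exact copy of each 75-base window (y axis) against the first base of the window, counted from the 5′ end (x axis), for the 7SL copy within RPS29 and for RN7SL2. Dashed lines mark the 4 bases that differ between both copies, and windows with 0 other places lie near the ends, 49 of 223 in the copy within RPS29 and 33 of 223 in RN7SL2.

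Depth ran from 15353317 to 46018900 counts per library, and RN7SL1, RN7SL2 and the 7SK row together took 9.74e-05% to 0.0773% of them. CNOT1 mRNA checked the gradient labels and went against 2 of them. In polysomal RNA labelled control siRNA, replicates 1, 2 and 4 were at 470 to 501 CPM (read counts scaled to the TMM-adjusted size of each library) but replicate 3 at 28.3. In polysomal RNA labelled CNOT1 siRNA, replicates 1, 2 and 4 were at 24 to 31.6 CPM but replicate 3 at 631. Both stayed in the fits as labelled. The tests of CNOT1 siRNA, the share of RN7SL1 and the mean ratios to polysomal RNA are also given without them, the single levels and the ranks are not. In the TNRC6 experiment, TNRC6A was at 178 and 189 CPM with control siRNA and at 40.5 and 64.7 with TNRC6A/B siRNA, and TNRC6B was at 67.6 and 73.1 against 17.7 and 26.3. No label names separate cultures, so p-values measure the spread between these libraries, which may be technical.

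RN7SL1 was highest in subpolysomal RNA and near 1 to 3 CPM in polysomal RNA and in the TNRC6 experiment. In subpolysomal RNA it was at 195, 308, 692 and 164 CPM with control siRNA (replicates 1 to 4) and at 301, 442, 160 and 191 with CNOT1 siRNA. In RIP total RNA it was at 164, 30.2 and 45.7 CPM. Replicate 1 of RIP total RNA thus stood 5.44-fold above replicate 2, and control subpolysomal replicate 3 stood 4.22-fold above replicate 4. In input RNA it was at 65.3, 46.2, 19.9 and 39.0 CPM with control siRNA and at 61.2, 28.7, 56.5 and 37.1 with CNOT1 siRNA. In polysomal RNA it was at 1.74, 2.86, 0.403 and 1.38 CPM with control siRNA and at 1.79, 0.742, 1.35 and 1.32 with CNOT1 siRNA. Every subpolysomal library lay above every input library, and every input library above every polysomal one. The IPs held 3.23, 3.97 and 1.88 CPM for eIF4A1, 4.06, 1.97 and 2.97 for eIF4A2 and 3.26, 4.54 and 3.94 for DDX6. RN7SL1 in the TNRC6 experiment was at 2.30 and 1.62 CPM with control siRNA and at 1.75 and 1.54 with TNRC6A/B siRNA.

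By group mean, RN7SL1 ranked as control subpolysomal RNA (340 ± 243 CPM, SD, n = 4), CNOT1 siRNA subpolysomal RNA (273 ± 128), RIP total RNA (80.1 ± 73.4, n = 3), CNOT1 siRNA input (45.9 ± 15.5) and control input (42.6 ± 18.8). DDX6 IP (3.91 ± 0.642, n = 3), eIF4A1 IP (3.03 ± 1.06) and eIF4A2 IP (3.00 ± 1.04) followed, then control total RNA (1.96 ± 0.477, n = 2), TNRC6A/B siRNA total RNA (1.64 ± 0.148), control polysomal RNA (1.59 ± 1.01, n = 4) and CNOT1 siRNA polysomal RNA (1.30 ± 0.428). Between neighbours in this order the libraries overlapped, except between control input and DDX6 IP. TMM factors were computed within each experiment, so levels set across experiments also differ in their scaling. The experiments differed in lysis, in the removal of nuclei and in RNA extraction as well, and these cannot be told apart from the experiment. In such bulk RNA, fewer cells with an RNA and less of it per cell cannot be told apart. With its mean of 340 CPM, RN7SL1 ranked 320 of 55765 symbols in control subpolysomal RNA, and with 1.30 CPM it ranked 12537 in CNOT1 siRNA polysomal RNA.

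RN7SL2 followed RN7SL1 through the gradient at a lower level and nearly vanished from the RIP libraries. In subpolysomal RNA it was at 28.5, 42.2, 76.0 and 14.9 CPM with control siRNA and at 39.9, 48.8, 21.7 and 28.5 with CNOT1 siRNA. In input RNA it was at 7.08, 5.35, 2.60 and 4.12 CPM with control siRNA and at 6.29, 3.86, 6.61 and 4.49 with CNOT1 siRNA. The libraries that were high for RN7SL1 were high here too, such as control subpolysomal replicate 3. In polysomal RNA it was at 0.386, 0.553, 0.0403 and 0.129 CPM with control siRNA and at 0.261, 0.0873, 0.186 and 0.0799 with CNOT1 siRNA, which is 1 to 12 counts a library. RIP total RNA held 0.342, 0.122 and 0.0718 CPM, from 13, 4 and 2 counts. The IP libraries held 0 to 2 counts each, and a count of 0 allowed up to 0.0683 and 0.0644 CPM in eIF4A1 IP replicates 1 and 2 and up to 0.101 and 0.0681 in eIF4A2 IP replicates 1 and 3. RN7SL2 in the TNRC6 experiment was at 2.37 and 1.87 CPM with control siRNA and at 0.974 and 2.90 with TNRC6A/B siRNA, close to RN7SL1.

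By group mean, RN7SL2 ranked as control subpolysomal RNA (40.4 ± 26.2 CPM, SD, n = 4), CNOT1 siRNA subpolysomal RNA (34.7 ± 12), CNOT1 siRNA input (5.31 ± 1.35), control input (4.79 ± 1.90), control total RNA (2.12 ± 0.351, n = 2) and TNRC6A/B siRNA total RNA (1.94 ± 1.36). Control polysomal RNA (0.277 ± 0.235, n = 4), RIP total RNA (0.178 ± 0.144, n = 3), CNOT1 siRNA polysomal RNA (0.154 ± 0.0866), DDX6 IP (0.0387 ± 0.0142), eIF4A1 IP (0.0165 ± 0.0286) and eIF4A2 IP (0.0101 ± 0.0175) came last. Libraries of neighbours did not overlap at 4 places, between subpolysomal RNA and input, between control input and control total RNA, between TNRC6A/B siRNA total RNA and control polysomal RNA, and between CNOT1 siRNA polysomal RNA and DDX6 IP.

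The 7SK row stayed between 0.348 and 2.08 CPM in all 40 libraries. RIP total RNA held 2.03, 1.40 and 2.08 CPM, eIF4A1 IP 0.911, 0.966 and 0.942, eIF4A2 IP 1.64, 1.48 and 1.52, and DDX6 IP 0.973, 1.29 and 0.876. In subpolysomal RNA it was at 1.47, 0.954, 1.35 and 1.09 CPM with control siRNA and at 1.39, 1.02, 0.656 and 0.709 with CNOT1 siRNA. In input RNA it was at 0.858, 0.658, 0.818 and 0.819 with control siRNA and at 0.968, 0.617, 0.601 and 0.845 with CNOT1 siRNA. These libraries overlapped between siRNAs in both kinds of RNA. In polysomal RNA it was at 0.656, 0.553, 0.564 and 0.688 with control siRNA and at 0.348, 0.568, 0.512 and 0.799 with CNOT1 siRNA, and in the TNRC6 experiment at 0.898 and 1.44 with control siRNA and 0.771 and 1.02 with TNRC6A/B siRNA. By group mean the order ran from RIP total RNA (1.84 ± 0.380 CPM, SD, n = 3) and eIF4A2 IP (1.55 ± 0.0834), over control subpolysomal RNA (1.22 ± 0.237, n = 4), control total RNA (1.17 ± 0.381, n = 2), DDX6 IP (1.05 ± 0.217), CNOT1 siRNA subpolysomal RNA (0.942 ± 0.337) and eIF4A1 IP (0.940 ± 0.0277), to TNRC6A/B siRNA total RNA (0.897 ± 0.179), control input (0.788 ± 0.0888), CNOT1 siRNA input (0.758 ± 0.179), control polysomal RNA (0.615 ± 0.0669) and CNOT1 siRNA polysomal RNA (0.557 ± 0.186). The libraries of neighbours overlapped at every step but the one from eIF4A2 IP to control subpolysomal RNA.

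RN7SK, the 7SK RNA gene itself, had a gradient pattern closer to 7SL. In subpolysomal RNA it was at 2.36, 7.67, 24.1 and 13.2 CPM with control siRNA and at 2.33, 5.22, 1.92 and 2.84 with CNOT1 siRNA. In input RNA it was at 1.26, 0.987, 0.875 and 1.86 with control siRNA and at 0.726, 0.823, 3.03 and 0.917 with CNOT1 siRNA. Control subpolysomal replicate 3 was again the highest library, while the lowest control library lay among those with CNOT1 siRNA. In polysomal RNA it was at 0.154, 0.323, 0.282 and 0.0430 with control siRNA and at 0.131, 0, 0 and 0.16 with CNOT1 siRNA, where a count of 0 allowed up to 0.131 and 0.14 CPM. RIP total RNA held 0.921, 0.426 and 1.01 CPM, eIF4A1 IP 0.0683, 0.0644 and 0.0248, eIF4A2 IP 0.235, 0.0606 and 0.386, and DDX6 IP 0.0679, 0 (up to 0.0745) and 0.285. All IP libraries were below all RIP total RNA libraries. In the TNRC6 experiment it was at 0 (up to 0.108) and 0.125 CPM with control siRNA and at 0.528 and 0.284 with TNRC6A/B siRNA.

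**Figure D2:**
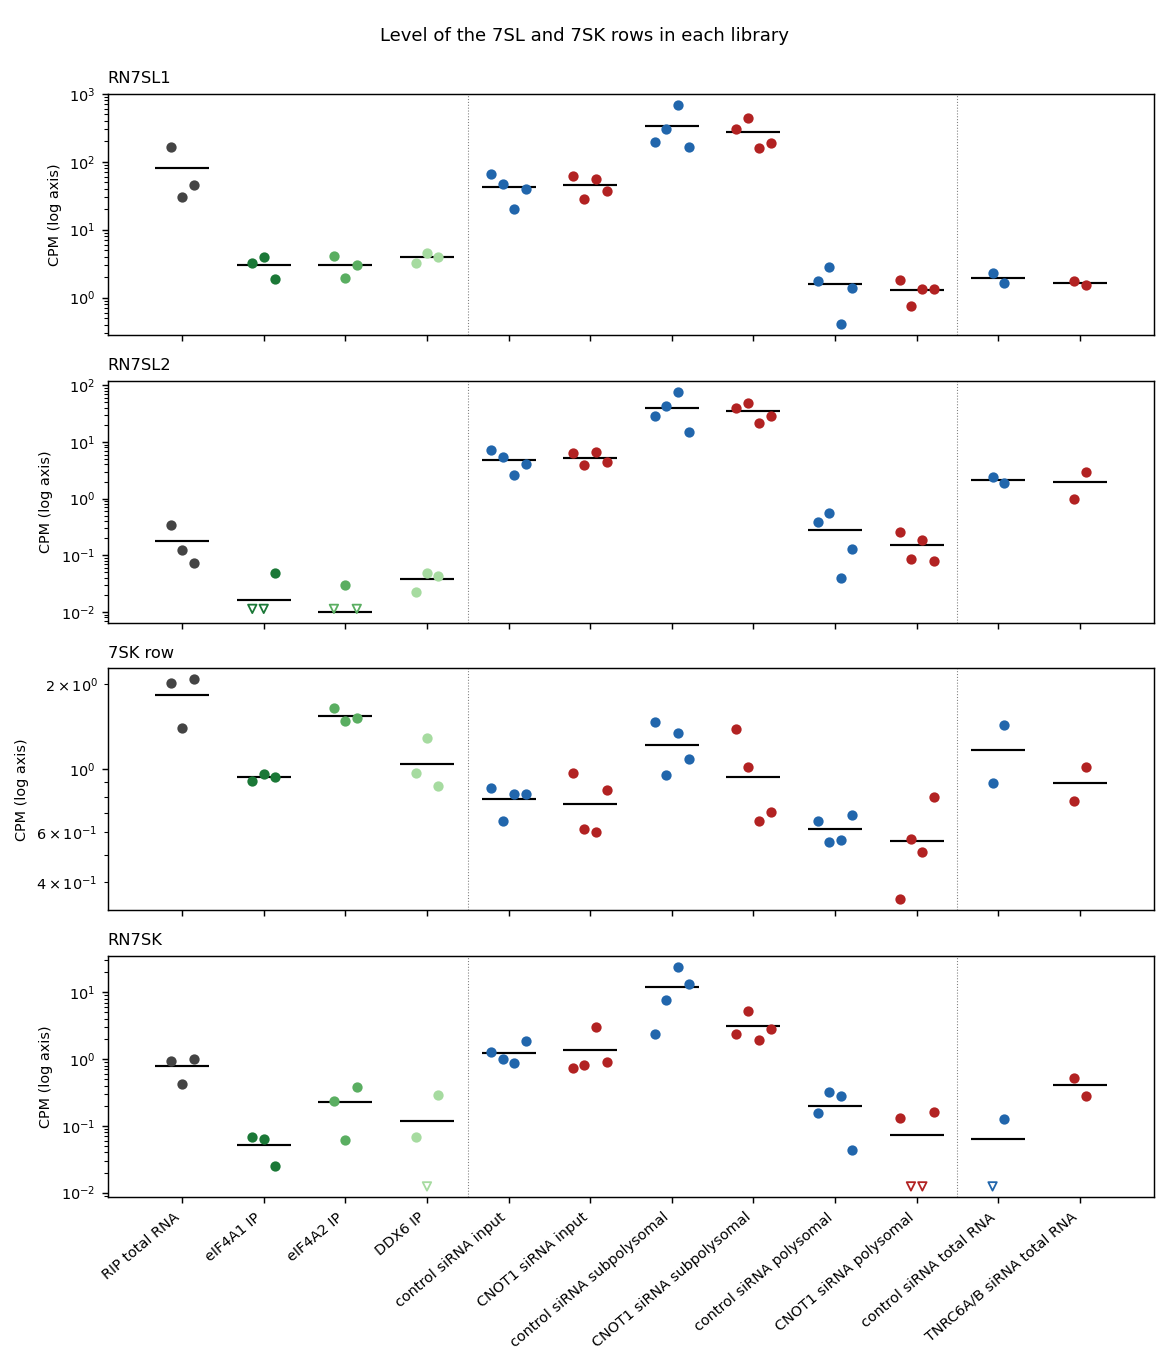
CPM on a log axis (y) of RN7SL1, RN7SL2, the 7SK row and RN7SK in each of 40 libraries, by group (x), with a bar at the group mean and an open triangle for a count of 0. RN7SL1 spans 0.403 to 692 CPM, whereas the 7SK row stays between 0.348 and 2.08.

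RN7SL1 spread between libraries of a group far beyond counting error where it was abundant. Its coefficient of variation was 91.7% in RIP total RNA, where counting error alone gives 2.04%, and 71.5% in control subpolysomal RNA, where it gives 1.19%. Where it was low, counting error was larger and the distance varied. The coefficient was 63.6% beside 16.0% in control polysomal RNA, 34.9% beside 8.79% in the eIF4A1 IP and 34.8% beside 9.75% in the eIF4A2 IP. It was 16.4% beside 7.67% in the DDX6 IP, 33% beside 18.3% in CNOT1 siRNA polysomal RNA and 24.3% beside 16.2% in control total RNA. TNRC6A/B siRNA total RNA, with 9.02% beside 17.3%, did not exceed counting error. For the 7SK row the coefficient ran from 2.95% to 35.8%, beside 13.0% to 28.1% from counting. Pooled over the 6 gradient groups, the SD of log2(CPM + 0.5) of RN7SL1 was 0.686, the 36th largest of 13477 genes with a mean of at least 1 CPM, whose median was 0.218. In the RIP experiment it was 0.717, rank 45 of 13871 genes (median 0.215), and in the TNRC6 experiment 0.211, rank 7932 of 12697 (median 0.280). RN7SL2 had an SD of 0.556 in the gradient experiment, rank 163, and 0.618 in the TNRC6 experiment, rank 1851 of 12697. RN7SK had 0.680 in the gradient experiment, rank 41. The 7SK row had 0.162 in the RIP experiment, rank 10137 of 13871.

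RN7SL1 and RN7SL2 moved together within the gradient experiment, yet their ratio differed between experiments. Either row could hold reads of the other RNA, as 131 of 223 windows of RN7SL2 were identical in the copy within RPS29. Across 24 gradient libraries the deviations from group means had a Pearson r of 0.927, a description over libraries that share depth and fractionation. For RN7SL1 with RN7SK this was 0.476, with RMRP, the RNA of RNase MRP, 0.471, and for the 7SK row with RN7SK it was -0.14. The share of RN7SL1 in the sum of both 7SL rows, which are nearly equal in length, was 97.4% to 100% in the 12 RIP libraries, 81.8% to 94.3% in the 24 gradient libraries and 34.6% to 64.2% in the 4 TNRC6 libraries. In summed counts there were 361, 8.21 and 0.936 RN7SL1 counts to 1 of RN7SL2. As single libraries, RIP total RNA replicate 1 had 6249 counts of RN7SL1 and 13 of RN7SL2 (99.8%, exact Clopper-Pearson 95% interval 99.6% to 99.9%), and control subpolysomal replicate 3 had 12314 and 1351 (90.1%, 89.6% to 90.6%). In the TNRC6 experiment, TNRC6A/B siRNA replicate 1 had 43 and 24 counts (64.2%, 51.5% to 75.5%) and replicate 2 had 27 and 51 (34.6%, 24.2% to 46.2%), so that even replicates of 1 group did not overlap in their intervals. Intervals cover counting error only, as PCR reads without molecular identifiers are not independent.

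The CNOT1 siRNA did not detectably move this share. With control and CNOT1 siRNA it was 89.7% ± 0.898 and 89.4% ± 1.04 in input RNA (SD, n = 4 each), a difference of -0.294 points (two-sided exact permutation test p = 0.686). It was 89.2% ± 2.03 and 88.4% ± 1.27 in subpolysomal RNA, a difference of -0.894 points (exact p = 0.514). In polysomal RNA it was 87.0% ± 4.90 and 89.7% ± 3.19, a difference of 2.73 points (exact p = 0.40). The polysomal difference ran from 1.01 to 4.21 points (lowest without control replicate 1, highest without control replicate 4) and the subpolysomal one from -1.56 to -0.0839 points (without control replicates 1 and 4) when single libraries were left out. Without both polysomal libraries numbered 3 it was 4.65 points (exact p = 0.30, where the smallest possible p is 0.10). The Benjamini-Hochberg adjusted value over the 3 tests was 0.686 for each, and the smallest p the design allows is 0.0286.

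**Figure D3:**
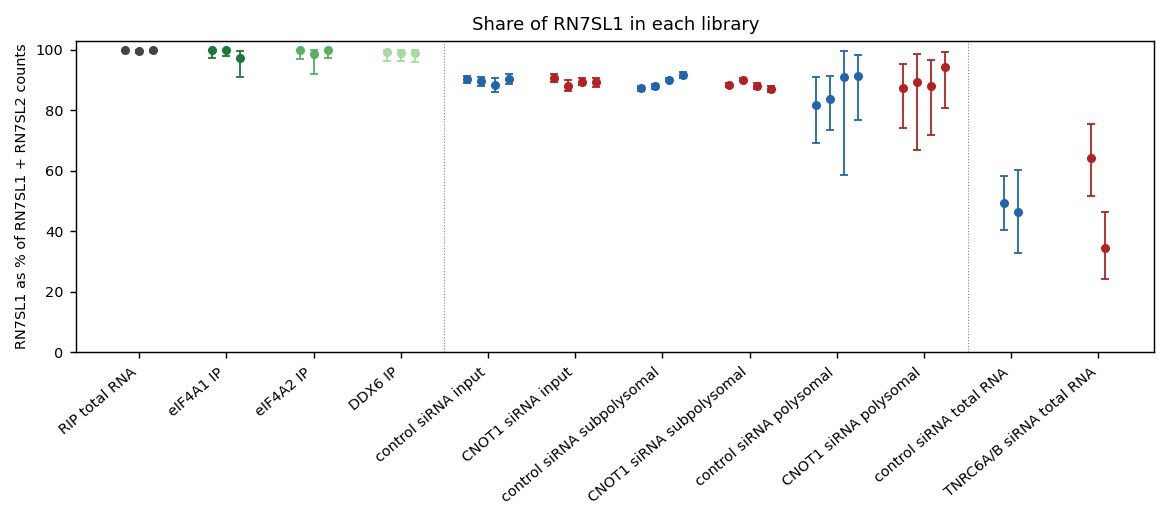
Share of RN7SL1 in the summed counts of RN7SL1 and RN7SL2 in percent (y), 1 point per library by group (x), with exact 95% binomial intervals for counting error. The shares lie at 97.4% to 100% in RIP libraries, 81.8% to 94.3% in gradient libraries and 34.6% to 64.2% in the TNRC6 experiment.

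RN7SL1 and RN7SL2 were far lower in polysomal than in subpolysomal RNA of the same gradient. Libraries of the same number and siRNA were taken as the same gradient, which deviations over all genes did not bear out between all fractions. The fractions were scaled as separate libraries, so a ratio of CPM does not give the portion of the RNA in each. All libraries came from poly(A)-selected RNA, whereas 7SL and 7SK end without such a tail. For these RNAs, CPM gives what passed the selection relative to mRNA, not their amount in a fraction. The log2 ratio of polysomal to subpolysomal CPM (+ 0.5) of RN7SL1 was -6.45, -6.52, -9.58 and -6.46 in control gradients 1 to 4, a mean of -7.25 ± 1.55 (SD), or 153-fold lower. In CNOT1 siRNA gradients it was -7.04, -8.48, -6.44 and -6.72, a mean of -7.17 ± 0.907, or 144-fold lower. These were the lowest mean ratios of 13477 genes with either siRNA, while the medians of all genes were 0.14 and 0.14. Gradient 3 of the control stood apart, and both polysomal libraries numbered 3 are those that went against their labels. RN7SL2 had -5.53 ± 1.12 and -5.69 ± 0.563, ranks 3 and 2 from the lowest. Without gradient 3, the means with control and CNOT1 siRNA were -6.48 and -7.41 for RN7SL1 and -5.00 and -5.92 for RN7SL2. Polysomal levels of RN7SL2 (0.0403 to 0.553 CPM) lay near or below the pseudocount of 0.5 CPM, which limits how low its ratio can go. With a pseudocount of 0.05 CPM and all gradients, RN7SL2 had -7.07 and -7.44, beside -7.73 and -7.61 for RN7SL1. The other RN7SL rows together were at 27.7 ± 3.45 and 21.6 ± 2.54 CPM in subpolysomal RNA and at 8.70 ± 2.24 and 7.11 ± 1.88 in polysomal RNA, where RN7SL1 was 14.1% and 15.2% of the counts of all RN7SL rows. The sum of all RN7SL rows was at 408 ± 271 and 330 ± 142 CPM in subpolysomal RNA and at 10.6 ± 2.95 and 8.56 ± 2.14 in polysomal RNA. In polysomal RNA most of this sum came from the other rows. Whether those rows hold reads of 7SL RNA was not tested, so the sum need not follow 7SL. The ratio of the sum was -5.04 ± 1.31 and -5.12 ± 0.941, or 33-fold and 34.8-fold lower. RN7SK had -3.77 ± 1.31 and -2.57 ± 0.632 (ranks 50 and 140), with polysomal levels that were all below the pseudocount. The 7SK row had only -0.61 ± 0.198 and -0.44 ± 0.539. It was lower in polysomal than subpolysomal RNA in 4 of 4 control and 3 of 4 CNOT1 siRNA gradients. Without gradient 3, RN7SK had -3.37 and -2.67 and the 7SK row -0.55 and -0.52.

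Against input, the CPM of RN7SL1 was higher in subpolysomal RNA by a log2 ratio of 2.86 ± 1.56 with control siRNA and 2.51 ± 1.02 with CNOT1 siRNA, ranks 11 and 19 from the highest. Single control gradients 1 to 4 had 1.57, 2.72, 5.09 and 2.06, and CNOT1 siRNA gradients 2.29, 3.92, 1.49 and 2.35. Gradient 3 was the highest with control siRNA and the lowest with CNOT1 siRNA, and without it the means were 2.12 and 2.85. RN7SL2 had 2.79 ± 1.32 and 2.56 ± 0.759, and RN7SK 2.46 ± 1.41 and 1.00 ± 1.12. The ratio of polysomal RNA to input of RN7SL1 was -4.39 ± 0.447 and -4.66 ± 0.249, the lowest of all genes with either siRNA, and without gradient 3 it was -4.36 and -4.56. That ratio varied less between gradients than the ratios that use subpolysomal RNA. Each of these ratios has n = 4, was part of what chose the rows, and carries no test.

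**Figure D4:**
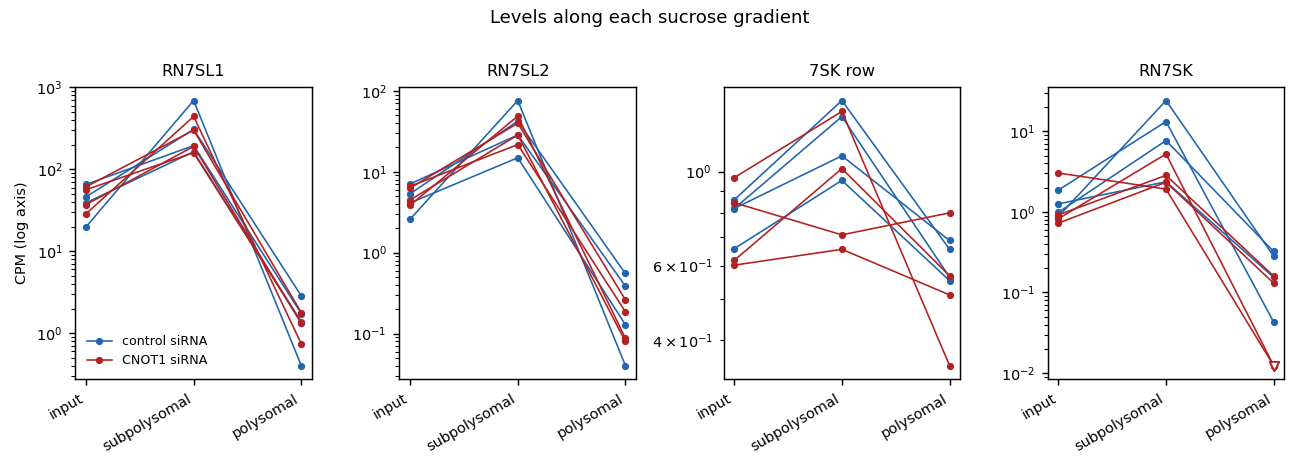
CPM on a log axis (y) in input, subpolysomal and polysomal RNA (x), 1 line per gradient, with control siRNA in blue and CNOT1 siRNA in red, and an open triangle for a count of 0. All 8 lines of RN7SL1 and of RN7SL2 peak in subpolysomal RNA and fall to their lowest level in polysomal RNA, whereas the 7SK row stays between 0.348 and 1.47 CPM.

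RN7SL1 was far lower in all 3 IPs than in total RNA, by more than the sum of all RN7SL rows. With the levels given above, every IP library lay below every RIP total RNA library. In the eIF4A1 IP the log2 fold change was -4.72 (SE 0.568, edgeR quasi-likelihood adjusted p = 2.21e-05), 26.3-fold lower. In the eIF4A2 IP it was -4.74 (SE 0.572, adjusted p = 2.08e-05), 26.8-fold lower and the second lowest of 17474 genes. In the DDX6 IP it was -4.36 (SE 0.556, adjusted p = 6.33e-05), 20.5-fold lower. The other RN7SL rows together were at 14.5 ± 2.14 CPM in total RNA (SD, n = 3) and at 5.68 ± 0.511, 7.21 ± 0.879 and 5.88 ± 0.434 in the eIF4A1, eIF4A2 and DDX6 IPs, and RN7SL1 made up 78.3% of the counts of all RN7SL rows in total RNA but 34.3%, 28.8% and 39.7% in the IPs. With all RN7SL rows summed, the log2 fold changes were -3.44, -3.21 and -3.27 (edgeR adjusted p = 1.92e-05, 2.81e-05 and 4.92e-05). RIP total RNA replicate 1 carried much of the size for RN7SL1. The level in total RNA was 50.8, 7.61 and 24.2 times that in the eIF4A1 IP of the same number, 40.5, 15.4 and 15.4 times that in the eIF4A2 IP, and 50.4, 6.66 and 11.6 times that in the DDX6 IP. Without RIP total RNA replicate 1 the log2 fold changes were -3.64, -3.66 and -3.28. The 3 IPs share the same total RNA libraries, so they are not independent of each other. As in the gradients, CPM gives what passed poly(A) selection relative to mRNA, and the part of this in these ratios was not tested.

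The 7SK row fell in the eIF4A1 IP (log2 fold change -0.96, SE 0.215, adjusted p = 0.00218) and in the DDX6 IP (-0.81, SE 0.213, adjusted p = 0.00725). In the eIF4A2 IP it had -0.24 (SE 0.210, adjusted p = 0.351). Of the 2 rows tested, RN7SL1 and the 7SK row, both were called lower in the eIF4A1 IP, where 26.5% of all genes tested were lower and 26.1% higher. In the eIF4A2 IP 1 of 2 was lower, beside 25.8% lower and 24.5% higher of all genes, and in the DDX6 IP 2 of 2, beside 23.3% lower and 22.7% higher. The split of all genes depends on the scaling, since TMM factors gave 4555 higher and 4638 lower genes for the eIF4A1 IP but total counts alone gave 6440 and 3104, 4283 and 4509 against 6533 and 2852 in the eIF4A2 IP, and 3965 and 4079 against 5055 and 2991 in the DDX6 IP. RN7SL2 was too low to be tested in the RIP experiment.

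RN7SK held 35, 14 and 28 counts in the total RNA libraries, 77 in all, and 7, 26 and 16 over the eIF4A1, eIF4A2 and DDX6 IPs. Of the IP libraries only eIF4A2 IP replicate 3 (17) and DDX6 IP replicate 3 (13) reached 10 counts, so it passed the filter on low counts through total RNA. A row that does so is bound to read as lower in the IPs, and its tests are given as values only. The log2 fold changes were -3.79 in the eIF4A1 IP (SE 0.782, adjusted p = 0.00125), -1.70 in the eIF4A2 IP (SE 0.630, adjusted p = 0.0372) and -2.65 in the DDX6 IP (SE 0.678, adjusted p = 0.00622). The eIF4A2 value did not pass with total counts in place of TMM factors (adjusted p = 0.0906), without RIP total RNA replicate 1 (adjusted p = 0.106) or 3 (0.103), and without eIF4A2 IP replicate 1 (0.0783) or 2 (0.119).

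**Figure D5:**
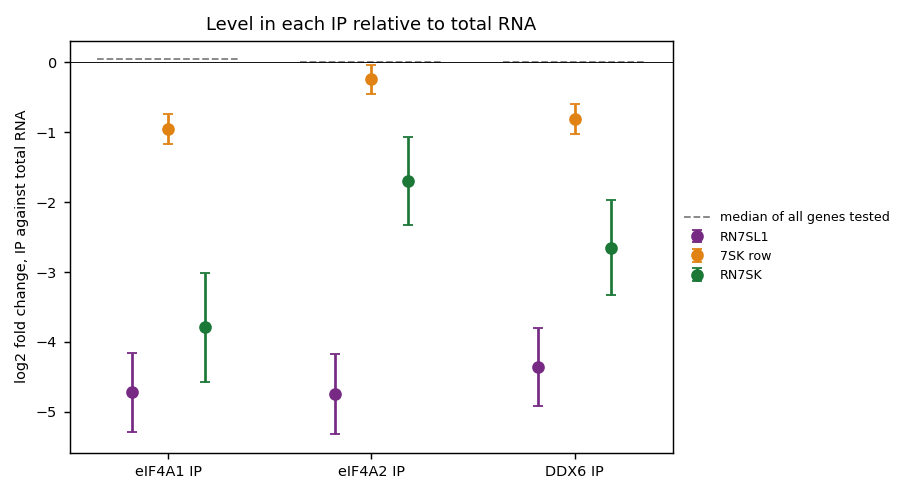
Log2 fold change of RN7SL1, the 7SK row and RN7SK in each IP against RIP total RNA (y), with bars of 1 SE and dashed lines at the median of all genes tested. RN7SL1 lies between -4.74 and -4.36 in all 3 IPs, while the 7SK row lies between -0.96 and -0.24.

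Between IPs, RN7SL1 did not pass the test. Its log2 fold change was -0.02 (SE 0.535, adjusted p = 0.988) for eIF4A2 against eIF4A1, -0.39 (SE 0.530, adjusted p = 0.635) for eIF4A2 against DDX6 and 0.36 (SE 0.522, adjusted p = 0.789) for DDX6 against eIF4A1. The 7SK row was higher in every eIF4A2 IP library than in every library of the other IPs. It had 0.72 against eIF4A1 (SE 0.216, adjusted p = 0.133) and 0.57 against DDX6 (SE 0.214, adjusted p = 0.075), and both passed with the replicate number as a block (0.72, adjusted p = 0.0369, and 0.57, adjusted p = 0.0444). For DDX6 against eIF4A1 it had 0.15 (SE 0.219, adjusted p = 0.792). Without the block, 0 of both rows tested were called in each comparison of IPs, where 1.06% (eIF4A2 against eIF4A1), 21.1% (eIF4A2 against DDX6) and 0.0916% (DDX6 against eIF4A1) of all genes were. At an unadjusted p under 0.05 there was 1 of 2, 1 of 2 and 0 of 2, in each case the 7SK row. Of all genes, 17.8%, 35.7% and 14% were under that value. DESeq2 changed no side of the threshold for either row in these comparisons. With the block, edgeR called 2766, 7074 and 1730 genes in these comparisons, against 185, 3685 and 16 without it.

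The mRNAs of the SRP's protein partners are read against all genes tested, of which 26.5%, 25.8% and 23.3% were lower in the eIF4A1, eIF4A2 and DDX6 IPs. Of 6 SRP protein genes, 3 fell and 0 rose in the eIF4A1 IP, with SRP72 (-1.52, SE 0.22) and SRP68 (-1.27, SE 0.13) the lowest. In the eIF4A2 IP 4 fell and 0 rose, again led by SRP72 (-1.59, SE 0.22) and SRP14 (-1.30, SE 0.40). In the DDX6 IP 3 fell, while SRP19 rose (0.73, SE 0.22). Median log2 fold changes of the list were -0.69, -1.11 and -0.37, beside 0.04, 0.01 and 0.01 over all genes. Of 7 genes of the SRP receptor and translocon, 5, 6 and 3 fell and 0 rose, with SEC62 (-1.96, -2.06 and -1.22) and SEC63 (-1.55, -1.63 and -0.90) lowest in the eIF4A1 and eIF4A2 IPs. Of 7 genes of the 7SK particle and P-TEFb, 3, 2 and 2 fell and 0 rose, and 2 of 7 is near the share of all genes. The capping enzyme MEPCE fell in each IP (-0.43, -0.54 and -0.46), the cyclin CCNT2 in the eIF4A1 and DDX6 IPs (-0.68 and -0.75) and HEXIM2, an inhibitor of P-TEFb, in the eIF4A2 IP (-1.39). With total counts in place of TMM factors, 3, 4 and 3 SRP protein genes and 4, 5 and 3 receptor and translocon genes fell, but only 0, 1 and 1 of the 7SK particle did, and MEPCE did not pass in any IP. Without RIP total RNA replicate 1, SRP19 in the DDX6 IP (0.63, adjusted p = 0.0667) and MEPCE in the eIF4A1 IP (-0.38, adjusted p = 0.0728) and DDX6 IP (-0.41, adjusted p = 0.0648) did not pass either.

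Other noncoding RNAs were mixed. BCYRN1 (BC200), an RNA polymerase III transcript related to 7SL, was at 7.61 ± 3.86 CPM in RIP total RNA (SD, n = 3) and fell in each IP (-2.96, -3.08 and -1.66). Of 18 other RNA polymerase III RNAs only 3 could be tested, and 2 fell in each IP, the other being Y_RNA (-0.84, -0.53 and -1.02). The nuclear retained lncRNAs MALAT1 (-2.13, -1.64 and -2.23), NEAT1 (-0.89, -0.79 and -1.37) and KCNQ1OT1 (-1.57, -1.08 and -1.52) fell in all IPs. Of the small nuclear and nucleolar RNAs made by RNA polymerase II, 2 rows were tested. The row U1 rose in the eIF4A1 and eIF4A2 IPs (1.22 and 1.54), while U3, a small nucleolar RNA, fell in the eIF4A1 and DDX6 IPs (-1.13 and -1.66). Y_RNA, U1 and U3 are family symbols, as 7SK is, and the loci they stand for were not examined. Their values are thus those of the rows and need not be those of the RNAs. Of 12 RNA polymerase III subunit mRNAs, 6, 5 and 6 fell and 2, 2 and 4 rose, with POLR3B lowest (-1.81, -1.43 and -1.35) and POLR3GL (1.17, 0.58 and 1.00) among those that rose. Of 25 replication-dependent histone genes tested, whose mRNAs end in a stem loop without a poly(A) tail, 6, 8 and 7 fell and 1, 2 and 0 rose. The share of these that fell is near that of all genes (26.5%, 25.8% and 23.3%), so it is not a result about histone genes, while the share that rose lay below that of all genes (26.1%, 24.5% and 22.7%). BCYRN1, MALAT1 in all IPs and U1 in the eIF4A1 and eIF4A2 IPs also passed with total counts alone, whereas NEAT1 in the eIF4A1 and eIF4A2 IPs, KCNQ1OT1 and Y_RNA in the eIF4A2 IP and U3 in the eIF4A1 IP did not.

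CNOT1 siRNA left all 3 rows short of the threshold in each fraction. In input RNA the log2 fold changes were 0.11 for RN7SL1 (SE 0.409, adjusted p = 0.860), 0.15 for RN7SL2 (SE 0.381, adjusted p = 0.782) and -0.06 for the 7SK row (SE 0.244, adjusted p = 0.865). In subpolysomal RNA they were -0.31 (SE 0.405, adjusted p = 0.583), -0.22 (SE 0.360, adjusted p = 0.679) and -0.33 (SE 0.250, adjusted p = 0.318). Without control subpolysomal replicate 3 the 7SL rows turned to 0.30 and 0.28. Of the 3 rows, 0 were called by edgeR in either RNA, where 29% of all genes were called in input (13.4% higher and 15.6% lower) and 32.2% in subpolysomal RNA (13% and 19.1%). With total counts alone the split of all genes moved from 2245 higher and 2614 lower to 3378 and 1773 in input, and from 2182 and 3212 to 4972 and 1188 in subpolysomal RNA. At an unadjusted p under 0.05 there were also 0 of 3 in each, beside 42.9% and 43.6% of all genes. DESeq2 likewise called 0 of 3.

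In polysomal RNA the log2 fold changes were -0.27 for RN7SL1 (SE 0.619, adjusted p = 0.893), -0.83 for RN7SL2 (SE 0.917, adjusted p = 0.769) and -0.14 for the 7SK row (SE 0.288, adjusted p = 0.886). Here edgeR called 0 of 16776 genes (0%), with 1123 at an unadjusted p under 0.05, none of them one of the 3 rows, and DESeq2 called 0. Without both polysomal libraries numbered 3, edgeR called 32.5% of genes, and the values were -0.62 (adjusted p = 0.572), -1.30 (adjusted p = 0.419) and -0.14 (adjusted p = 0.790). The CNOT1 effect in polysomal minus that in subpolysomal RNA was 0.04 for RN7SL1 (SE 0.759, adjusted p = 0.985), -0.61 for RN7SL2 (SE 0.979, adjusted p = 0.767) and 0.20 for the 7SK row (SE 0.383, adjusted p = 0.813), and 5.66% of all genes were called. Without both libraries these were -0.31, -1.08 and 0.19 (adjusted p = 0.858, 0.606 and 0.817), and 18% were called. Input and subpolysomal values moved by less than 0.01 without them, while the share of genes called became 41.3% and 42.8%, since all fractions share 1 estimate of the spread.

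RN7SK fell with CNOT1 siRNA in subpolysomal RNA, by a log2 fold change of -1.92 (SE 0.504, edgeR adjusted p = 0.00567), or 3.77-fold. Its libraries overlapped between the siRNAs, and control replicate 3, the highest at 24.1 CPM, carried much of the size. Without that library the value was -1.30 (adjusted p = 0.0449). In input RNA it had 0.14 (SE 0.545, adjusted p = 0.857), and in polysomal RNA -1.35 (SE 1.27, adjusted p = 0.732) from 0 to 7 counts a library, or -0.76 (adjusted p = 0.760) without both libraries numbered 3. Of 5 other RNA polymerase III RNAs tested in subpolysomal RNA, 4 fell and 0 rose, beside 19.1% lower and 13% higher of all genes. BCYRN1 fell from 18.1 ± 3.04 to 8.17 ± 2.74 CPM (log2 -1.15, SE 0.21, adjusted p = 0.000231). RPPH1, the RNA of RNase P, had -1.24 (SE 0.42, adjusted p = 0.0277), VTRNA1-3, a vault RNA, -1.36 (SE 0.46, adjusted p = 0.027) and Y_RNA -0.40 (SE 0.13, adjusted p = 0.025). The loci behind the row Y_RNA were not examined. BCYRN1 and Y_RNA also fell in input RNA (-0.79, SE 0.21, and -0.36, SE 0.13). Control subpolysomal replicate 3 also held the most RMRP (18.7 CPM, against 0.581 to 4.36 in the other control libraries) and the most RPPH1 (11.5 against 1.86 to 7.21), and without it 2 of the 5 RNAs fell, BCYRN1 (-1.14, adjusted p = 0.000616) and Y_RNA, while RPPH1 had -0.73 (adjusted p = 0.186) and VTRNA1-3 had -1.24 (adjusted p = 0.0633). With total counts in place of TMM factors, which also left fewer of all genes lower, 1 of the 5 fell, BCYRN1.

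Among the protein partners, SRP14 (-0.81, SE 0.18) and SRP9 (-0.68, SE 0.18), which together bind the Alu part of 7SL, fell in input RNA with CNOT1 siRNA, and SRP68 rose (0.39, SE 0.13). In subpolysomal RNA 1 of 6 SRP protein genes rose, SRP54 (0.39, SE 0.12), and 0 fell. SRPR, the SRP receptor subunit, was the only one of 7 receptor and translocon genes to change, and it rose in input and in subpolysomal RNA (0.39 and 0.45). Of 7 genes of the 7SK particle and P-TEFb, CDK9 (0.69, SE 0.18) and MEPCE (0.49, SE 0.16) rose and CCNT2 (-0.80, SE 0.18) fell in input RNA. In subpolysomal RNA MEPCE rose (0.55, SE 0.16) while CCNT2 (-0.88, SE 0.18) and CCNT1 (-0.55, SE 0.12) fell. Median log2 fold changes in input and subpolysomal RNA were -0.14 and -0.07 for SRP proteins, 0.12 and 0.25 for the receptor and translocon, and -0.04 and -0.06 for the 7SK particle, beside -0.03 and -0.07 over all genes. With so few genes in each list and 13.4% and 15.6% of all genes higher and lower in input (13% and 19.1% in subpolysomal RNA), these counts are not a result about the lists. SRP54 did not pass without control subpolysomal replicate 3 (0.31, adjusted p = 0.0609), nor CCNT1 with total counts alone (-0.27, adjusted p = 0.0733).

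TNRC6A/B siRNA did not bring any row past the threshold. The log2 fold changes were -0.27 for RN7SL1 (SE 0.368), -0.16 for RN7SL2 (SE 0.595) and -0.37 for the 7SK row (SE 0.446), each with an edgeR adjusted p of 1.0. No gene of 14064 was called (0%), targets included, although 289 had an unadjusted p under 0.05, 0 of them one of these rows, and DESeq2 called 8. With 2 libraries a group, RN7SL2 spanned 0.974 to 2.90 CPM within TNRC6A/B siRNA, which covers both control libraries. RN7SK had too few counts to be tested here.

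The genes whose level followed each row most closely over the 24 gradient libraries were found among 13476 or 13477 genes with a mean of at least 1 CPM, by Pearson r of log2(CPM + 0.5), which mostly follows the difference between fractions. For RN7SL1 these were RN7SL2 (0.990), FTL, which encodes ferritin light chain (0.946), MIR17HG (0.945), SNHG5 (0.945) and RP11-152N13.16 (0.943). For RN7SL2 they were RN7SL1, the mitochondrial mRNA MT-CO2 (0.956), MORF4L2-AS1 (0.956), MIR17HG (0.954) and RP11-152N13.16 (0.953). For the 7SK row they were MKLN1-AS1 (0.847), BBS1 (0.829), RP11-348F1.2 (0.827), SMYD4 (0.824) and AP001462.6 (0.819), and neither 7SL row was among them. By deviations from group means over all 40 libraries, RN7SL2 was closest to RN7SL1 (0.760) and then to NUDT2 (0.548), ZKSCAN3 (0.527), EIF3J-AS1 (0.523) and SPOCK3 (0.517). RN7SL1, for which RN7SL2 was below the minimum level in the RIP experiment, was closest to CTD-2186M15.3 (0.571), ENTPD3-AS1 (0.525), CTD-3184A7.4 (0.512), ATP5E (0.511) and RNASET2 (0.510). The 7SK row was closest to MCEE (0.717), MED7 (0.632), IL17RB (0.632), PIGP (0.626) and RP11-299J3.8 (0.619).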

How the data were processed

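The authors sequenced poly(A)-selected stranded libraries on a NextSeq500 (bcl2fastq 2.0), aligned reads with TopHat2 to hg19 and counted them per gene symbol with HTSeq. The strand setting and annotation release are not given in the sources used here. The deposited files hold raw counts for each of 40 libraries. A merged table also deposited by the authors holds log2 fold changes and mean log2 CPM, a score (likelihood ratio statistic) and p-values of their own edgeR test of each IP. It was not used. Samples were grouped by GEO's labels, with replicate numbers taken from the sample titles. The description of RIP total RNA replicate 3 gives another replicate number than its title, and the title was followed. In each of 3 experiments, genes were filtered with filterByExpr, scaled by TMM and fitted over all groups with the quasi-likelihood test of edgeR 4.0.16 (R 4.3.3), 11 comparisons in all, with Benjamini-Hochberg adjustment over all genes and a threshold of 0.05. The procedure was tested on simulated data. DESeq2 1.42.0, other scalings, no filter, a replicate block, fits of the compared libraries only and leaving out each library were alternatives. Ratios used a pseudocount of 0.5 CPM. Limits for a count of 0 are 3 counts. Genome windows were compared with GRCh37 (GENCODE release 44).

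The members and gene lists were chosen with earlier results of these data known. Genes named are the members, RN7SK, the 5 most like each member, and from each list at most the 2 highest and 2 lowest past the threshold (RNA polymerase III RNAs freely), with TNRC6A and TNRC6B added as a check of the knockdown and RMRP and RPPH1 beside RN7SK. Same-numbered RIP libraries deviated together (r of 0.138 to 0.628 in all 18 pairs of libraries, median 0.345). In the 36 pairs with different numbers r was -0.534 to 0.190 (median -0.178). These ranges overlapped slightly, so the numbers may pair the samples. The main fits did not use this pairing, which the replicate block did as an alternative. Same-numbered gradient libraries also deviated together between the siRNAs in input (lowest r 0.134) and subpolysomal RNA (0.469), but not in polysomal RNA (-0.519). Some single items are not reported here.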

Additional observations from a re-analysis of the deposited data

Results flagged for a closer look

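Of 54 groups of 4 values from the members and RN7SK, 4 held a library or gradient far from the others by Dixon's criterion, which chance alone would give in about 1 of 20 groups. RN7SK was at 3.03 CPM in CNOT1 siRNA input replicate 3, whereas the other libraries of the group held 0.726 to 0.917. The log2 polysomal to subpolysomal ratio of RN7SL1 was -9.58 in control gradient 3, whereas the other control gradients had -6.52 to -6.45. That of RN7SK was -3.52 in CNOT1 siRNA gradient 2. The log2 polysomal to input ratio of the 7SK row was -0.79 in CNOT1 siRNA gradient 1, where the polysomal library held 8 counts of that row.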

How the results depend on the processing

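Of 465 alternatives to 36 results, 416 kept the direction and the side of the threshold, 39 turned the direction, 5 brought a value past the threshold and 5 moved a ratio by more than its SD. RN7SL1 kept its call in each IP against total RNA under all of them, over -5.11 to -3.64 (eIF4A1), -5.13 to -3.66 (eIF4A2) and -4.75 to -3.28 (DDX6) when single libraries were left out. No turned value had passed the test.

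With total counts in place of TMM factors, values turned to 0.067 for the 7SK row in the eIF4A2 IP, 0.047 for RN7SL1 in eIF4A2 against eIF4A1, 0.035 for the 7SK row in input, 0.048 for RN7SL2 in subpolysomal RNA, and -0.19 (RN7SL1) and -0.047 (7SK row) for the difference between fractions, and the 7SK row in eIF4A2 against DDX6 passed the threshold at 0.74. This scaling moved the median of all genes from 0.04, 0.01 and 0.01 to 0.29, 0.32 and 0.16 in the eIF4A1, eIF4A2 and DDX6 IPs and from -0.07 to 0.21 in subpolysomal RNA, and the split of genes called higher and lower from 1716 and 1969 to 2677 and 1144 in eIF4A2 against DDX6 and from 547 and 402 to 192 and 1983 for the difference between fractions. With all RN7SL rows summed, the sum had 0.23 in eIF4A2 against eIF4A1 and 0.055 in eIF4A2 against DDX6, and its polysomal to subpolysomal ratios were -5.04 and -5.12 with control and CNOT1 siRNA (a setting added after the data were seen, as were those without gradient 3). With RN7SK in place of the 7SK row, the values were -1.70 in the eIF4A2 IP, -1.92 in subpolysomal RNA and 0.14 in input. The difference between fractions for RN7SL1 turned to -0.019 with RLE factors, -0.047 without a filter, -0.043 with DESeq2 and -0.31 without both polysomal libraries numbered 3. With a pseudocount of 0.05, the polysomal to subpolysomal ratios were -7.07 and -7.44 for RN7SL2 and -0.92 for the 7SK row with control siRNA. The causes were not tested. RN7SK turned to -0.043 in input with the replicate block. It passed the threshold in eIF4A2 against eIF4A1 without a filter (2.06).

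Leaving out single libraries gave -0.29 to 0.23 for RN7SL1 in eIF4A2 against eIF4A1 and -0.024 to 0.26 for the 7SK row in DDX6 against eIF4A1. In input it gave -0.13 to 0.39 (RN7SL1), -0.055 to 0.40 (RN7SL2), -0.19 to 0.034 (7SK row) and a share of -0.724 to 0.119 points. In subpolysomal RNA it gave -0.65 to 0.30 (RN7SL1) and -0.49 to 0.28 (RN7SL2), in polysomal RNA -0.60 to 0.15 (RN7SL1) and -0.37 to 0.033 (7SK row), and for the difference between fractions -0.57 to 0.46 (RN7SL1) and -0.037 to 0.45 (7SK row). With TNRC6A/B siRNA it gave -0.44 to 0.030 (RN7SL1), -1.13 to 0.44 (RN7SL2) and -0.67 to 0.029 (7SK row), with the lone library of a group assumed to vary like the other group. For RN7SK it gave -0.55 to 1.67 in DDX6 against eIF4A1 (lowest without DDX6 IP replicate 3), -0.59 to 0.41 in input (lowest without CNOT1 siRNA input replicate 3) and -0.14 to 0.97 for the difference between fractions (lowest without CNOT1 siRNA polysomal replicate 4).

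The replicate block brought the 7SK row past the threshold in eIF4A2 against eIF4A1 (0.72) and against DDX6 (0.57) and changed no other call of the members or RN7SK. In the TNRC6 experiment, where 2 numbers do not establish pairing by themselves, the block called 520 genes higher and 243 lower, against 0 without it, and same-numbered libraries deviated together (r = 0.821).

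Over all genes, some counts of calls moved by more than 1.5 times. For eIF4A2 against eIF4A1 the count was 185, with 997 without a filter, 700 with DESeq2, 23 with the compared libraries only, 2766 with the block and as few as 46 without eIF4A1 IP replicate 3. For eIF4A2 against DDX6 it was 3685, with 7074 with the block and as few as 1486 without DDX6 IP replicate 2. For DDX6 against eIF4A1 it was 16, with 232, 414, 0 and 1730 in the same order and as few as 0 without eIF4A1 IP replicate 1. In input it was 4859, with 9727 for the compared libraries only and as few as 2976 without CNOT1 siRNA input replicate 3. In polysomal RNA it was 0, with 46 without a filter, 2874 without control replicate 3, 611 without CNOT1 siRNA replicate 3 and 5453 without both. For the difference between fractions it was 949, with 2175 with total counts, 154 for the compared libraries only, 2054 without control polysomal replicate 3 and 3017 without both. With TNRC6A/B siRNA it was 0, with 23 without a filter, 763 with the block and 8 with DESeq2.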
